A study of Mus musculus with 16 samples.

Results

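The genes described here are 10 components of mechanistic target of rapamycin complex 1 (mTORC1) signalling and of amino acid sensing: Mtor, Rptor, Tsc1, Tsc2, Deptor, Eif4ebp1, Rps6kb1, Depdc5, Castor1 and Eif2ak4. They form a list by function, drawn up when earlier results of these data were known, and were taken by symbol from the table of read counts, which holds 41079 genes. All 10 were found, and all 10 were among the 16742 genes that passed the filter on low counts and were tested.

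mTORC1 is a kinase complex on the lysosome that promotes protein synthesis when amino acids and insulin are abundant, chiefly by phosphorylating the 4E-BP repressors of translation and the S6 kinases. Amino acids reach it through Rag GTPases, which the GATOR complexes and cytosolic sensors of leucine and arginine control, while insulin reaches it through the TSC complex, an inhibitor of the GTPase Rheb. The kinase GCN2 reads uncharged tRNA instead and raises the transcription factor ATF4, and in liver glucagon drives the uptake and breakdown of amino acids, so that loss of its receptor raises amino acids in blood.

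Livers of 16 aged mice were profiled by poly-A RNA sequencing, with 4 mice in each of 4 groups. LKO mice carried floxed Gcgr, the glucagon receptor gene, together with a Cre transgene under the Albumin promoter, which is active in hepatocytes. CRE- controls carried the same floxed gene without Cre, so that floxing was shared by all groups. Male and female mice of both genotypes were 20 to 22 months old, on a C57BL/6J background, and the labels give no treatment. The comparison of LKO with CRE- within each sex asked what loss of hepatic glucagon signalling changed in that sex, and the difference between the sexes and the mean over them were tested in the same fit. The libraries held from 33268424 reads counted in genes, in female LKO replicate 4, to 56488920, in female CRE- replicate 2.

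Gcgr was examined first as a check on the labels, with levels in CPM, the read count of a gene relative to the TMM-scaled size of its library. Gcgr read 190.4, 193, 127 and 189.6 CPM in male CRE- replicates 1 to 4, and 117, 136, 129.9 and 160.3 CPM in male LKO replicates 1 to 4. It read 162, 208, 201 and 180.0 CPM in the 4 female CRE- livers, and 48.8, 132, 119 and 93.6 CPM in the 4 female LKO livers. The female groups did not overlap, whereas in males CRE- replicate 3 lay among the LKO livers. Whole-gene counts also include reads from the exons that Cre leaves in place and from cells without Cre, so these levels do not measure the share of deleted alleles. In edgeR the log2 fold change was -0.93 in females (adjusted p = 0.0443) and -0.37 in males (adjusted p = 0.671), and all 8 LKO livers were below the mean of their controls. Summed hepatocyte markers, described below, were also lower in female LKO (55638 to 90501 CPM) than in female CRE- (109589.5 to 131002 CPM), and overlapped in males. Their part in the Gcgr difference was not tested. The female call was kept without male CRE- replicate 2, male CRE- replicate 3 or female LKO replicate 2, and lost without any of the other 13 libraries in turn, with adjusted p between 0.0506 and 0.136. It was also lost with upper-quartile normalization (0.0707), without the filter (0.0545), with a stricter filter (0.0506) and with each sex fitted alone (0.132). It was kept in DESeq2 (0.00807), in limma-voom (0.00859), with RLE normalization (0.0485) and with the replicate number as a block (0.0216). The call was also kept with both outlying libraries described below left out (-0.69, adjusted p = 0.037) and with the length trend removed (-0.91, adjusted p = 0.0304). The male difference passed under no alternative, at adjusted p from 0.235 to 0.808. Over both sexes the mean was -0.65 in edgeR (adjusted p = 0.0555). It passed in DESeq2 (0.0105) and limma-voom (0.00889), within a range of 0.00854 to 0.116 over all alternatives.

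A pair of libraries stood apart before any group was compared. On principal components of log2 CPM, which took 23.9% and 16.8% of the variance, female LKO replicate 1 was farthest out on the first and male CRE- replicate 3 on the second. Both held long genes high and short genes low: the median log2 deviation of the 4034 genes of at least 6000 bases, minus that of the 2728 genes under 1500 bases, was 1.33 in male CRE- replicate 3 and 0.98 in female LKO replicate 1, and between -0.65 and 0.21 in the other 14. This bears on the members because 7 of them have at least 6000 exonic bases (Mtor, Rptor, Tsc1, Tsc2, Deptor, Rps6kb1 and Depdc5), and Eif4ebp1 has 981. Male CRE- replicate 3 held the highest level of all 16 libraries for Mtor, Rptor, Tsc1, Tsc2, Deptor, Depdc5 and Eif2ak4, and the lowest for Eif4ebp1 and Castor1. The group means of the long-minus-short difference were 0.29 ± 0.74 in male CRE-, -0.14 ± 0.16 in male LKO, -0.23 ± 0.29 in female CRE- and 0.05 ± 0.62 in female LKO (SD, n = 4), so that differences between groups lay within the spread of replicates. The comparisons were therefore repeated without these libraries, and with each library's trend over gene length removed.

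**Figure D1:**
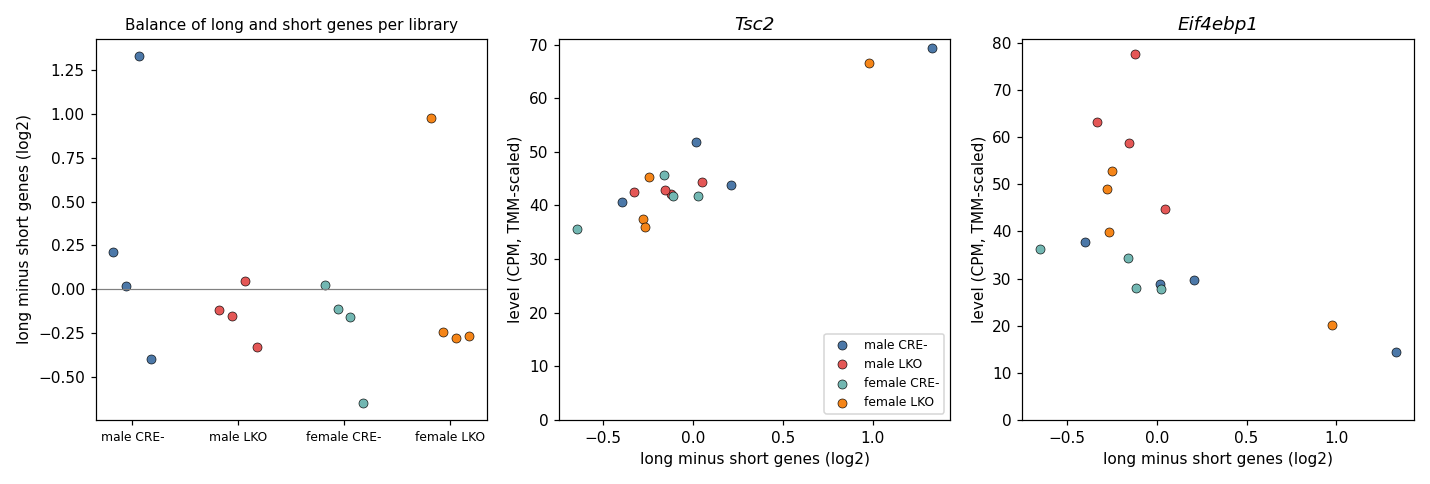
The left panel plots, for each of the 16 libraries (1 point each, by group), the median log2 deviation of long genes minus that of short genes; the other panels plot Tsc2 and Eif4ebp1 (CPM) against it. Male CRE- replicate 3 at 1.33 and female LKO replicate 1 at 0.98 lie to the right, with Tsc2 at 69.4 and 66.6 CPM and Eif4ebp1 at 14.4 and 20.0 CPM.

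Levels were compared between members only per length, as CPM per kilobase of exonic sequence (RPKM), averaged over the 16 libraries. Eif4ebp1, which encodes the translation repressor 4E-BP1, was the most abundant at 41.0 RPKM, above 91.6% of the genes tested. Deptor, an inhibitor that binds mTOR, followed at 20.3 RPKM, ahead of Tsc2 at 7.04, Mtor at 6.42, Rptor at 4.57 and Tsc1 at 3.30 RPKM. The lower ranks were Rps6kb1 at 2.79, Eif2ak4 at 1.84, Depdc5 at 1.52 and Castor1 at 0.862 RPKM. Neighbours were not all apart in this order: the ranges of Tsc2 and Mtor, of Tsc1 and Rps6kb1, and of Eif2ak4 and Depdc5 overlapped in all 4 groups, those of Mtor and Rptor in 3, and those of Deptor and Tsc2 in 1. The remaining pairs (Eif4ebp1 and Deptor, Rptor and Tsc1, Rps6kb1 and Eif2ak4, Depdc5 and Castor1) overlapped in 2 of 4 groups. Castor1, the arginine sensor, rested on 34 to 145 reads per library, while every other member had at least 259.

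**Figure D2:**
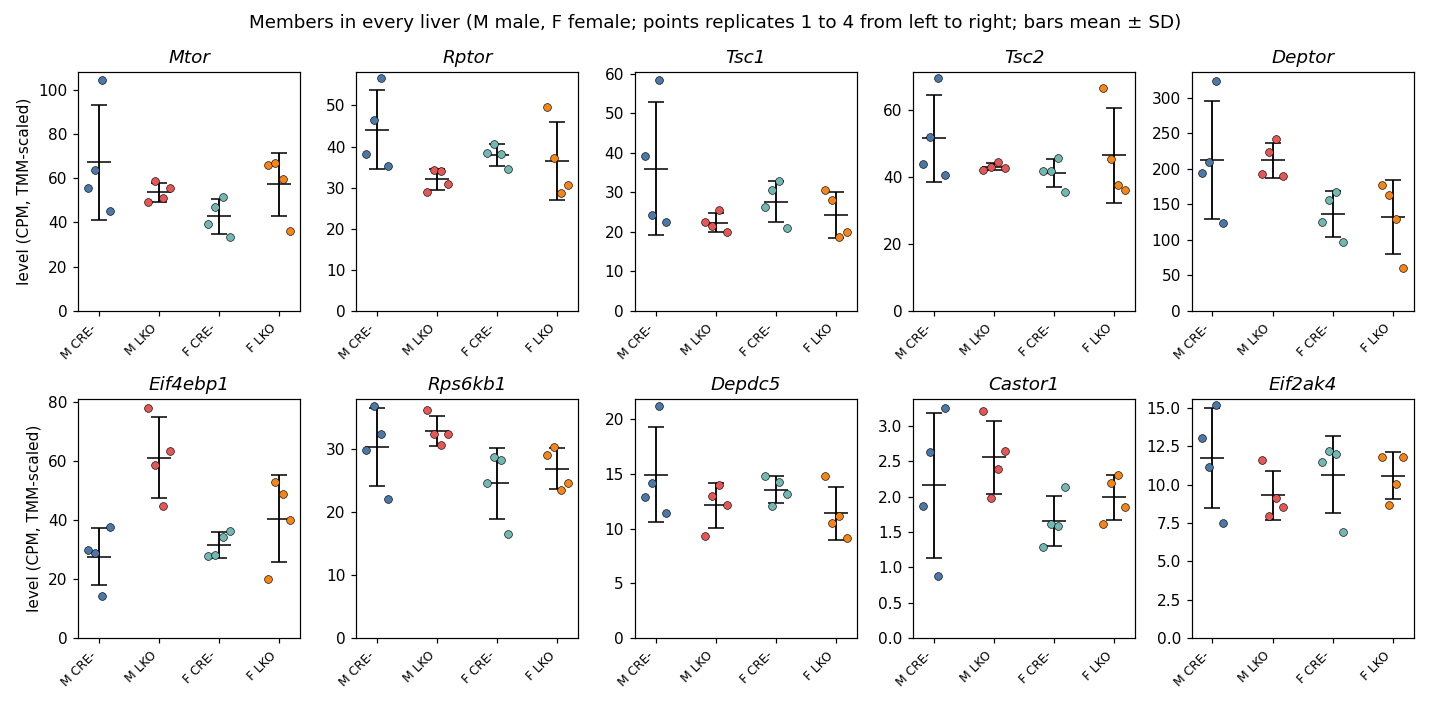
Level (CPM) of each member in every liver, with points for replicates 1 to 4 and bars for mean ± SD of each group (n = 4). Eif4ebp1 lay between 44.7 and 77.7 CPM in male LKO and between 14.4 and 37.6 CPM in male CRE-, while the other members overlapped between genotypes in both sexes except Rptor in males.

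No member passed an adjusted p of 0.05 in either sex by edgeR, with adjustment over all 16742 genes. In males the count was 0 of 10, beside 0.454% of all genes tested. At an unadjusted p under 0.05 it was 3 of 10 (Eif4ebp1, Rptor and Tsc1), beside 9.53% of all genes. DESeq2 called 1 of 10 in males (2.02% of all genes) and limma-voom called 1 of 10 (0.884% of all genes), which was Eif4ebp1 in both. In females edgeR called 0 of 10 (4.24% of all genes), with 0 of 10 at an unadjusted p under 0.05 (21.4%), 0 of 10 by DESeq2 (10.8%) and 0 of 10 by limma-voom (11.8%). Groups that did not overlap were counted as well. In males these were 2 of 10 members, Eif4ebp1 higher and Rptor lower in LKO, beside 6.49% of all genes. In females they were 0 of 10, beside 11.6% of all genes. The median log2 fold change over the members was -0.28 in males and 0.06 in females, against -0.01 and 0.04 over all genes tested. The male median rested on CRE- replicate 3, without which it was -0.07, and it was -0.12 with the length trend removed. The female median was -0.04 without LKO replicate 1, -0.045 without CRE- replicate 4, -0.135 in limma-voom and -0.023 with the length trend removed.

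For the mean genotype effect over both sexes edgeR called 0 of 10 members (2.86% of all genes), with 2 of 10 at an unadjusted p under 0.05 (15.8%). DESeq2 called 1 of 10 (6.18% of all genes) and limma-voom 1 of 10 (5.12% of all genes), again Eif4ebp1. Over the members the median of this effect was -0.03 on the log2 scale, and 0.02 over all genes. With libraries left out in turn it ran from -0.125, when female LKO replicate 1 was omitted, to 0.075, when male CRE- replicate 3 was.

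Among the targets of mTORC1, Eif4ebp1 (chr8:27750355-27765684, plus strand, GRCm39) showed the largest difference of the 10 members in males. It read 29.7, 28.8, 14.4 and 37.6 CPM in male CRE- replicates 1 to 4, and 77.7, 58.7, 44.7 and 63.2 CPM in male LKO replicates 1 to 4. The 4 male LKO livers were all above the 4 controls, with replicate 1 the highest of the 16 libraries and CRE- replicate 3 the lowest. In females it read 27.8, 28.1, 34.3 and 36.4 CPM in CRE- and 20.0, 52.9, 48.9 and 39.9 CPM in LKO. Female LKO replicates 2 to 4 were above every female control, and replicate 1, the library that held short genes low, was below them all. Fewer cells of a type and less RNA per cell cannot be told apart in such bulk tissue. The log2 fold change in edgeR was 1.14 in males (95% interval 0.52 to 1.77, adjusted p = 0.119), a 2.21-fold higher level that did not pass the threshold. In females it was 0.35 (95% interval -0.26 to 0.97, adjusted p = 0.534), with 3 of 4 LKO livers above the control mean. The mean over both sexes was 0.75 (95% interval 0.31 to 1.19, adjusted p = 0.0646).

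The call for Eif4ebp1 depended on the processing although its direction did not. In males it was past the threshold with DESeq2 (log2 fold change 1.13, adjusted p = 0.0197), with limma-voom (adjusted p = 0.0312), and after the length trend was removed (log2 fold change 0.91, adjusted p = 0.0106). Of single libraries left out, female LKO replicate 1 changed the male call, to 1.13 with an adjusted p of 0.043. With male CRE- replicate 3 left out as well it was 0.92, with an adjusted p of 0.0468. Over all alternatives the adjusted p in males ran from 0.0106 to 0.336. The mean over both sexes passed with male CRE- replicate 4 left out (0.84, adjusted p = 0.045) and with female LKO replicate 1 left out (0.87, adjusted p = 0.013), within a range of 0.00186 to 0.139 over all alternatives. This mean also passed in DESeq2 (0.0161), in limma-voom (0.0037) and with the length trend removed (0.00186). The same held with both outlying libraries left out (0.00604) and with the replicate number as a block (0.0325). In females alone the adjusted p was between 0.0677 and 0.761 under all alternatives, and the difference ran from 0.20 without LKO replicate 2 to 0.60 without LKO replicate 1.

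The other target among the members, Rps6kb1, encodes S6 kinase 1, which promotes ribosomal protein S6 phosphorylation. Its levels ran from 22.1 to 37.0 CPM in male CRE- and from 30.7 to 36.2 CPM in male LKO, and from 16.6 to 28.8 and from 23.6 to 30.4 CPM in the corresponding female groups. The genotypes overlapped in both sexes. Its log2 fold changes were 0.12 in males (95% interval -0.28 to 0.51) and 0.13 in females (95% interval -0.27 to 0.53), and the sign in males turned to -0.005 without male CRE- replicate 4 and that in females to -0.002 without female CRE- replicate 4 and to -0.05 in limma-voom.

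Of the subunits of the complex, Rptor (chr11:119493731-119790417) encodes Raptor, the scaffold that presents substrates to mTOR. It read 38.2, 46.4, 56.7 and 35.3 CPM in male CRE- replicates 1 to 4, and 28.9, 34.3, 34.0 and 31.0 CPM in the 4 male LKO livers. All 4 male LKO livers were below all 4 controls, the nearest pair being LKO replicate 2 and CRE- replicate 4. In females, where the values were 38.4, 40.7, 38.2 and 34.4 CPM in CRE- and 49.6, 37.3, 28.6 and 30.6 CPM in LKO, the groups overlapped, and LKO replicate 1 was the highest. The log2 fold change was -0.46 in males (95% interval -0.85 to -0.07, adjusted p = 0.405) and -0.06 in females (adjusted p = 0.901), neither past the threshold. Without male CRE- replicate 3 the male value was -0.33, and with the length trend removed -0.30. The female value was 0.04 with LKO replicate 3 left out and 0.02 with LKO replicate 4 left out.

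The kinase gene itself, Mtor (chr4:148533039-148642142), read 55.5, 63.9, 104 and 44.9 CPM in male CRE- and 49.4, 58.5, 51.0 and 55.3 CPM in male LKO. All male LKO livers lay within the range of their controls, which CRE- replicate 3 widened. In females it read 39.5, 46.9, 51.3 and 33.4 CPM in CRE- and 66.0, 66.7, 59.5 and 36.3 CPM in LKO, with LKO replicates 1 to 3 above every control and replicate 4 among them. The log2 fold change was -0.33 in males (adjusted p = 0.705), where it was -0.05 without CRE- replicate 3, and 0.42 in females (95% interval -0.10 to 0.93, adjusted p = 0.346). Deptor had the widest range over the 16 libraries next to Eif4ebp1, from 60.9 CPM in female LKO replicate 4 to 323 CPM in male CRE- replicate 3. Its group means were 213 ± 82.7 CPM in male CRE- and 212 ± 25.2 CPM in male LKO, and 137 ± 31.8 and 133 ± 52.0 CPM in female CRE- and LKO (SD, n = 4). The 95% interval of its log2 fold change was -0.66 to 0.65 in males and -0.69 to 0.61 in females, so that differences of either sign within these bounds are not excluded. Its sign in males, at a log2 fold change of -0.01, turned to 0.25 without male CRE- replicate 3, to 0.02 without male LKO replicate 1 and to 0.03 without male LKO replicate 4. In females, where the difference was -0.04, the sign turned to 0.03 without female CRE- replicate 2, to 0.07 without female CRE- replicate 3 and to 0.20 without female LKO replicate 4.

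Tsc1 and Tsc2 encode hamartin and tuberin, the partners that switch off Rheb and with it mTORC1. Tsc1 (chr2:28531005-28581183) read 39.1, 24.1, 58.5 and 22.4 CPM in male CRE- and 22.5, 21.5, 25.5 and 19.9 CPM in male LKO. Male CRE- replicates 1 and 3 were high, and replicates 2 and 4 lay among the LKO livers. The log2 fold change in males was -0.69 (95% interval -1.25 to -0.13, adjusted p = 0.388) and did not pass the threshold, with all 4 LKO livers below the control mean. It was -0.37 without male CRE- replicate 3 and -0.47 with the length trend removed. In females Tsc1 ran from 21 to 32.8 CPM in CRE- and from 18.6 to 30.5 CPM in LKO, a log2 fold change of -0.19 (adjusted p = 0.741). This female value ran from -0.295 to -0.083 with libraries left out in turn, and its lowest under the other alternatives was -0.45.

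Tsc2 read 43.8, 51.8, 69.4 and 40.7 CPM in male CRE- and 42.1, 42.9, 44.3 and 42.5 CPM in male LKO, where its replicates were closer together than in any other group. It read 41.7, 41.9, 45.7 and 35.6 CPM in female CRE- and 66.6, 45.4, 37.6 and 36.0 CPM in female LKO. The high values were those of the libraries that held long genes high, and the genotypes overlapped in both sexes. The log2 fold change was -0.26 in males (adjusted p = 0.716), or -0.09 without CRE- replicate 3. It was 0.17 in females (adjusted p = 0.678), and -0.03 without female LKO replicate 1 and male CRE- replicate 3. Leaving out female LKO replicate 1 alone gave -0.04.

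On the amino acid side, Depdc5 encodes a subunit of GATOR1, which switches off the Rag GTPases, and Castor1 releases the brake on mTORC1 when it binds arginine. Depdc5 ran from 11.4 to 21.2 CPM in male CRE- and from 9.31 to 14 CPM in male LKO, and from 12 to 14.8 and from 9.14 to 14.8 CPM in female CRE- and LKO. Its log2 fold changes were -0.30 in males (95% interval -0.74 to 0.14) and -0.25 in females (95% interval -0.69 to 0.19). Both groups of each sex overlapped, and without male CRE- replicate 3 the male value was -0.10. With libraries left out in turn the female Depdc5 value ran from -0.381 to -0.158. Castor1 had means of 2.16 ± 1.02 CPM in male CRE- and 2.56 ± 0.518 CPM in male LKO, and of 1.66 ± 0.354 and 1.99 ± 0.318 CPM in female CRE- and LKO (SD, n = 4). Its log2 fold changes of 0.24 and 0.27 had 95% intervals from -0.48 to 0.96 and from -0.45 to 0.99, and the male value was -0.03 without CRE- replicate 3. The female Castor1 value ran from 0.163 to 0.435 with libraries left out in turn.

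Eif2ak4 encodes GCN2, the kinase that uncharged tRNA activates. It read 13, 11.2, 15.2 and 7.51 CPM in male CRE- and 11.6, 7.95, 9.12 and 8.54 CPM in male LKO. It read 11.5, 12.2, 12 and 6.92 CPM in female CRE- and 11.8, 8.65, 10.02 and 11.8 CPM in female LKO. Replicate 4 was the lowest control in each sex, and the genotypes overlapped in both. The log2 fold change was -0.33 in males (95% interval -0.82 to 0.16, adjusted p = 0.686) and -0.01 in females (95% interval -0.50 to 0.48, adjusted p = 0.986). With libraries left out in turn the male value ran from -0.495 to -0.202. The female value changed sign when single libraries were left out: it was 0.03 without female CRE- replicate 1, 0.06 without female CRE- replicate 2, 0.05 without female CRE- replicate 3, 0.07 without the LKO replicate 2 and 0.01 when LKO replicate 3 was omitted.

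The sex difference of the genotype effect, female minus male, was tested directly. By edgeR 0 of 10 members passed, where 0% of all genes did, and 1 of 10 had an unadjusted p under 0.05, beside 16% of all genes. DESeq2 called 0 of 10 (2.22% of all genes) and limma-voom 0 of 10 (0.173% of all genes). The member with the unadjusted p under 0.05 was Mtor, whose difference between the sexes was 0.74 on the log2 scale (95% interval 0.02 to 1.47, adjusted p = 0.306), and 0.47 without male CRE- replicate 3 or 0.43 with the length trend removed. For Eif4ebp1 the difference was -0.79 (95% interval -1.66 to 0.08, adjusted p = 0.348), so that a weaker effect in females was not shown. With both outlying libraries left out its effect was 0.918 in males and 0.759 in the mean, against 1.144 and 0.749 with all libraries. The mean includes the males, so these pairs do not measure the sex difference.

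The controls were compared between the sexes to give the baseline. By edgeR 0 of 10 members passed between female CRE- and male CRE- livers (0.920% of all genes), and 1 of 10 had an unadjusted p under 0.05 (12.7%). DESeq2 called 0 of 10 (3.04% of all genes) and limma-voom 0 of 10 (1.97% of all genes). The member log2 fold changes had a median of -0.31, with 9 of 10 below 0, against -0.01 over all genes. Mtor was -0.65 (95% interval -1.17 to -0.14, adjusted p = 0.275) and Deptor -0.64 (95% interval -1.29 to 0.02, adjusted p = 0.407). Male CRE- replicate 3 entered this comparison too, and without it the median was -0.12 and the Mtor value -0.37. That library also held the highest Deptor level of the controls, at 323 CPM, with the other male controls at 124 to 209 CPM. Female controls ran from 97.5 to 168 CPM for Deptor.

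The members were set beside a wider list of 80 genes of the same pathway, ordered by role, of which 79 were tested and 10 are the members themselves. By edgeR 1 of 79 was higher in male LKO, 2 of 79 in female LKO and 3 of 79 in the mean over both sexes, and 0 of 79 were lower in each, beside 0.454%, 4.24% and 2.86% of all genes. Their medians on the log2 scale were 0.03 in males, 0.03 in females and 0.07 for the mean. At an unadjusted p under 0.05 the counts were 11, 9 and 11 of 79, beside 9.53%, 21.4% and 15.8% of all genes, with 3, 4 and 6 called by DESeq2 (2.02%, 10.8% and 6.18% of all genes) and 3, 3 and 5 by limma-voom (0.884%, 11.8% and 5.12%). The distance from those shares was not tested, and the genes below are described for their own values. The sex difference gave 0 of 79 by edgeR, with 7 at an unadjusted p under 0.05 (16% of all genes) and 0 by DESeq2 (2.22%) and limma-voom (0.173%), and the comparison of controls gave 0 (0.920%), 8 (12.7%), 0 (3.04%) and 0 (1.97%) in the same order. The 3 genes past the threshold for the mean were Trib3, Sesn2 and Eif4ebp3. They came from the roles of stress-induced mTORC1 inhibitors (1 of 3), cytosolic amino acid sensors (1 of 7) and mTORC1 substrates and effectors of translation (1 of 14).

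Trib3 (chr2:152179345-152185980, minus strand) encodes a pseudokinase that binds AKT upstream of mTORC1 and is a known ATF4 target. It read 9.60, 3.43, 4.68 and 11.8 CPM in male CRE- and 29.5, 25.3, 26.9 and 38.3 CPM in male LKO. It read 4.13, 3.31, 9.31 and 6.58 CPM in female CRE- and 16.4, 20.6, 25.0 and 8.79 CPM in female LKO. All male LKO livers were above all male controls, and female LKO replicate 4 lay just under female CRE- replicate 3. Trib3 rose in males by a log2 fold change of 2.03 (adjusted p = 0.0409), in females by 1.60 (adjusted p = 0.0381) and in the mean by 1.81 (95% interval 1.21 to 2.42, adjusted p = 0.00223), with 4 of 4 LKO livers above the control mean in each sex. The sex difference was -0.42 (adjusted p = 0.729). The mean passed without each library in turn, at adjusted p from 0.00116 to 0.00721. The male call was lost without male CRE- replicate 1 (adjusted p = 0.082), 2 (0.102) or 3 (0.133), without male LKO replicate 1 (0.0893), 2 (0.0759), 3 (0.0811) or 4 (0.117), without female CRE- replicate 4 (0.0594), and with upper-quartile normalization (0.0501). The female call was lost without male LKO replicate 2 (adjusted p = 0.0523), 3 (0.05) or 4 (0.0511), without female CRE- replicate 1 (0.083), 2 (0.133), 3 (0.0519) or 4 (0.0807), without female LKO replicate 1 (0.0682) or 3 (0.0783), and with each sex alone (0.0761). With male CRE- replicate 3 and female LKO replicate 1 both left out, Trib3 did not pass in males (1.85, adjusted p = 0.12) or in females (1.67, adjusted p = 0.0549), and only the mean passed (1.76, adjusted p = 0.00712). With the length trend removed all 3 passed, at 1.92 (adjusted p = 0.0304), 1.69 (0.021) and 1.80 (0.0013).

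Sesn2 (chr4:132220115-132237767, minus strand) encodes Sestrin2, a leucine sensor that restrains mTORC1 through GATOR2 when leucine is scarce. It read 6.63, 7.22, 8.94 and 6.97 CPM in male CRE- and 9.60, 16, 16.6 and 13.5 CPM in male LKO. It read 6.63, 6.74, 5.99 and 4.52 CPM in female CRE- and 19.6, 10.6, 16 and 6.77 CPM in female LKO. The genotypes did not overlap in either sex, although female LKO replicate 4 exceeded the highest control only narrowly. Sesn2 rose in females by a log2 fold change of 1.15 (adjusted p = 0.0332) and in the mean by 1.03 (95% interval 0.61 to 1.44, adjusted p = 0.00898). The male difference of 0.91 did not pass in edgeR (adjusted p = 0.224) and did in limma-voom (1.04, adjusted p = 0.0494), and the sex difference was 0.24 (adjusted p = 0.779). The mean passed without each library in turn. The female call was lost without female CRE- replicate 1 (adjusted p = 0.0546), 2 (0.0868), 3 (0.0906) or 4 (0.0834), without female LKO replicate 1 (0.0955) or 3 (0.0646), and with each sex alone (0.0967). With both outlying libraries left out the female difference of 0.92 did not pass (adjusted p = 0.0798) and the mean of 0.96 did (adjusted p = 0.0131). With the length trend removed both passed (adjusted p = 0.0296 and 0.013).

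Eif4ebp3 encodes 4E-BP3, a relative of Eif4ebp1 among the 4E-BP repressors. It read 8.48, 10.4, 6.06 and 9.24 CPM in male CRE- and 41.7, 11.6, 14.5 and 16.2 CPM in male LKO. It read 5.15, 7.79, 8.02 and 6.25 CPM in female CRE- and 8.28, 10.5, 11.7 and 19.9 CPM in female LKO. The genotypes did not overlap in either sex, and male LKO replicate 1 was far above its group. Eif4ebp3 rose in the mean by a log2 fold change of 1.09 (adjusted p = 0.0281), and its differences of 1.30 in males (adjusted p = 0.157) and 0.89 in females (adjusted p = 0.16) did not pass in edgeR, while DESeq2 called the male one (1.28, adjusted p = 0.031). With libraries left out in turn they ran from 0.71 to 1.49 in males, lowest without LKO replicate 1, and from 0.59 to 1.07 in females, lowest without LKO replicate 4. The call for the mean was lost without male CRE- replicate 1 (adjusted p = 0.0552) or 3 (0.0536), without female CRE- replicate 1 (0.0599), 2 (0.0514) or 4 (0.0619), without female LKO replicate 4 (0.0539), and in limma-voom (0.77, adjusted p = 0.0544). It was kept with both outlying libraries left out (1.11, adjusted p = 0.0348) and with the length trend removed (1.04, adjusted p = 0.0197). Without male LKO replicate 1 the mean was 0.81. The remaining repressor of the family, Eif4ebp2, differed by -0.20 in the mean (adjusted p = 0.577) and did not share the direction of the other pair.

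**Figure D3:**
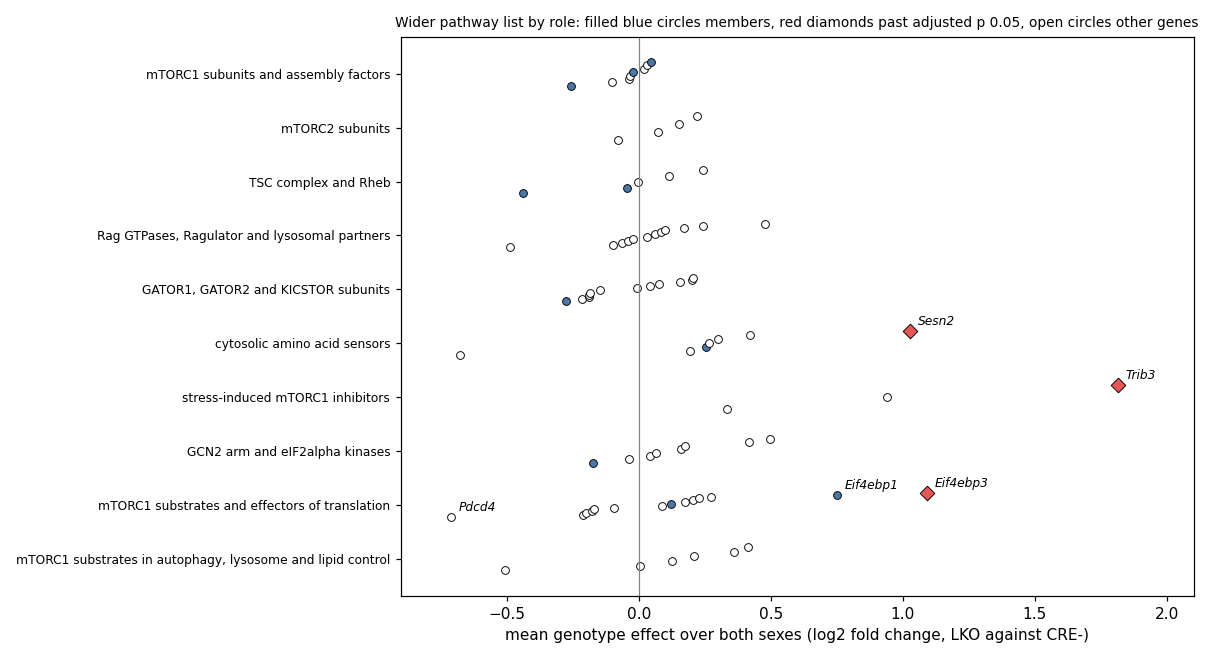
Mean genotype effect over both sexes (log2 fold change) of the 79 genes tested, 1 point per gene in rows by role. The diamonds past an adjusted p of 0.05 are Trib3 at 1.81, Sesn2 at 1.03 and Eif4ebp3 at 1.09, and the members, drawn as filled circles, lie between -0.44 and 0.75.

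In the other 7 roles edgeR called 0 genes for the mean genotype effect. At an unadjusted p under 0.05, which 15.8% of all genes reached, there were 0 of 8 among mTORC1 subunits and assembly factors, 0 of 4 among mTORC2 subunits and 0 of 12 among GATOR and KICSTOR subunits. There were 1 of 5 for the TSC complex and Rheb, 1 of 12 for Rag GTPases, Ragulator and lysosomal partners, 2 of 8 for the GCN2 arm and 1 of 6 for substrates in autophagy and lipid control. DESeq2 and limma-voom each called 1 gene in these roles, Lamtor3. The gene with the smallest p of its role was Lamtor3 of Ragulator at 0.48 (adjusted p = 0.0953), Eif2ak3, the kinase PERK, at 0.50 (adjusted p = 0.158), the lysosomal transcription factor Tfe3 at 0.36 (adjusted p = 0.192), Prr5l of mTORC2 at 0.22 (adjusted p = 0.748), and the members Rptor, Tsc1 and Depdc5 in theirs. Lamtor3 passed without female LKO replicate 1 (0.56, adjusted p = 0.0222), and over all alternatives its adjusted p ran from 0.0176 to 0.18. Tfe3 was 0.60 in females in edgeR (adjusted p = 0.0851), where the groups did not overlap and DESeq2 called it. In males Tfe3 was 0.12 (adjusted p = 0.87), with groups that overlapped.

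Groups that did not overlap were counted over the wider list too: 8 of 79 genes were higher and 1 was lower in male LKO, beside 6.49% of all genes, and 4 were higher and 3 lower in female LKO, beside 11.6%. Some of them were named after their values were seen. Pdcd4, an inhibitor of the helicase eIF4A that S6 kinase marks for decay as protein, read 139, 109, 114 and 108 CPM in female CRE- and 84.8, 61.0, 66.0 and 43.8 CPM in female LKO. The female groups did not overlap, and the difference of -0.88 did not pass in edgeR (adjusted p = 0.0767). It did in DESeq2 (adjusted p = 0.0302), in limma-voom (0.0166), with the length trend removed (0.027), without male LKO replicate 1 (0.0426) and with the replicate number as a block (0.0209). With both outlying libraries left out the female difference of -1.03 did not pass (adjusted p = 0.0669). In males the Pdcd4 groups overlapped and the difference of -0.54 did not pass (adjusted p = 0.56). Its mean genotype effect was -0.71 on the log2 scale (adjusted p = 0.0603), which became -0.83 (adjusted p = 0.0315) without male LKO replicate 3 and -0.79 (adjusted p = 0.0432) without female LKO replicate 1. The mean also passed in DESeq2 (0.0128), in limma-voom (0.0281), with the length trend removed (0.0318) and with the replicate number as a block (0.0118). It did not pass with both outlying libraries left out (-0.70, adjusted p = 0.0682). Ddit4, which encodes the mTORC1 inhibitor REDD1, read 4.54, 5.75, 4.73 and 7.24 CPM in male CRE- and 14.9, 12.9, 19.9 and 13.5 CPM in male LKO. These groups did not overlap either, yet the difference of 1.46 did not pass with all groups in 1 edgeR fit (adjusted p = 0.25) and passed with males fitted alone (1.44, adjusted p = 0.0215). Its mean of 0.94 (adjusted p = 0.142) passed only without female LKO replicate 2 (1.10, adjusted p = 0.0348), and in females replicates ran from 3.99 to 32.1 CPM within LKO alone. With libraries left out in turn the Ddit4 mean ran from 0.571 to 1.097. Atf4 was 0.66 higher in males on the log2 scale, with groups that did not overlap (adjusted p = 0.405), and 0.18 higher in females (adjusted p = 0.743). The female Atf4 value ran from 0.03 to 0.408 with libraries left out in turn.

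Sequences around the gene starts were read to show the letters that Trib3, the gene of the list with the largest change, shares with a known ATF4 target. RefSeq windows from 250 bases before to 50 bases after each gene start (build GRCm38.p6) were at hand for 8 of 10 members, in 9 windows, and not for Deptor and Eif4ebp1. They were searched on both strands for TGATGNAA, the core of the C/EBP-ATF response element (reverse complement TTNCATCA), with no other motif searched. It occurred in 0 of the 9 member windows, and in 1304 of all 32851 windows of that length (3.97%). In the wider list 65 of 80 genes had an entry, in 80 windows, and 3 of these genes held the motif: Eef2k, Lamtor4 and Trib3. That count was not tested against the share of all windows. Eef2k and Lamtor4 were past the threshold in no comparison by edgeR, DESeq2 or limma-voom. The stretch of 30 bases around the match is printed for Trib3, together with that of Asns, the asparagine synthetase gene, named after its values were seen as a reference because ATF4 is known to act on it. Asns rose in LKO by a log2 fold change of 6.32 in males (adjusted p = 0.000425) and 4.50 in females (adjusted p = 0.00274), from 0.214 to 1.91 CPM in the 8 controls to 7.58 to 87.9 CPM in the 8 LKO livers. Both stretches are on the minus strand and written 5′ to 3′ as the gene reads, with the match in capitals; in Trib3 (chr2:152344028-152344057) the match begins 15 bases after the gene start and holds the motif on the opposite strand, and in Asns (chr6:7693214-7693243) it begins 23 bases before the gene start with the motif as spelled. A match is a description of the letters and was not tested as a site.
Trib3: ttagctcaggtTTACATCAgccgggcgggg
Asns: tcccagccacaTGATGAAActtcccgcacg

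Genes with a pattern like that of Eif4ebp1, the member with the smallest p in the mean genotype comparison, were sought among all other genes tested by Pearson's r of log2 CPM over the 16 libraries. The 5 most alike were 1110038B12Rik (r = 0.939), Blvrb (0.939), 2410006H16Rik (0.934), Pigp (0.928) and Lrrc51 (0.92), which is a description over n = 16 libraries that share the balance of long and short genes. Trib3 ranked 466 by this measure (r = 0.731) and Sesn2 ranked 5221 (r = 0.244).

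Marker genes of liver cell types were summed per library to check the tissue and to set composition beside these results. Of 7 hepatocyte markers 6 were found by symbol and summed; transferrin had been listed as Tf, which the table holds as Trf, and was not summed. None of the 6 was at 0 in any library. Their summed level was 118394, 109589.5, 114754 and 131002 CPM in female CRE- and 55638, 90501, 89243 and 71141 CPM in female LKO, with Alb the most abundant. The female groups did not overlap, while the male ones did, at 67909 to 105061 CPM in CRE- and 63421 to 89302 CPM in LKO. The 7 macrophage and Kupffer cell markers, led by Lyz2, summed to 722, 533, 586 and 926 CPM in female CRE- and to 2529, 893, 1964 and 1273 CPM in female LKO, and to 247 to 1254 and 506 to 984 CPM in male CRE- and LKO. The 6 neutrophil markers, led by S100a9, summed to 35.6, 20.1, 16.5 and 16.5 CPM in female CRE- and to 106, 43.4, 58.2 and 496 CPM in female LKO, and to 15.9 to 131 and 12.5 to 26.8 CPM in male CRE- and LKO. Female LKO livers were thus above all female controls in neutrophil markers, with replicate 4 the highest, and 3 of 4 were above them in macrophage markers. Ly6g was at 0 in all male LKO libraries and in at least 1 library of both CRE- groups. The 6 proliferation markers, led by Top2a, summed to 10.4, 8.68, 5.17 and 19.6 CPM in female CRE- and to 83.4, 16.4, 33.1 and 34.0 CPM in female LKO, and to 6.46 to 23.8 and 5.57 to 14.8 CPM in male CRE- and LKO.

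The remaining marker lists overlapped between genotypes in both sexes and had no gene at 0. T and NK cell markers, led by Nkg7, ran from 5.19 to 17.1 and 5.94 to 16.4 CPM in male CRE- and LKO, and from 5.92 to 22.0 and 11.1 to 23.0 CPM in the female groups. B and plasma cell markers, led by Jchain, ran from 42.7 to 73.5 and 38.5 to 63.7 CPM in males, and from 29.1 to 61.8 and 22.5 to 133 CPM in females. Endothelial markers, led by Clec4g, ran from 164 to 269.8 and 257 to 290.4 CPM in males, and from 211 to 299.5 and 223 to 374 CPM in females. Stellate cell and fibroblast markers were led by Dcn and cholangiocyte markers by Spp1. The stellate sums ran from 292 to 572 and 268 to 444 CPM in males, and from 331 to 404 and 236 to 412 CPM in females. The cholangiocyte sums ran from 43.6 to 101 and 72.1 to 90.2 CPM in males, and from 53.1 to 117 and 66.4 to 146 CPM in females. The part of these shifts in the levels of Gcgr, Sesn2, Trib3 and the members was not tested in either sex.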

How the data were processed

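Liver RNA of the 16 mice was sequenced as paired 150-base reads. The authors aligned them with STAR 2.7.1a to GRCm39 and deposited, without normalization, the count of reads per gene from featureCounts (Subread 2.0.6), with gene position and length. The labels describe no strand-specific library step, while the authors counted 1 strand. Of 30 genes with at least 50% of their exonic bases inside exons of an opposite-strand gene among the 4000 most abundant, 26 had under 10% of its reads per base (median 1.94%), so the counts follow the strand. A narrower search tried first found 0 genes. All 16 libraries entered one edgeR 4.0.16 fit of 4 groups in R 4.3.3 (limma 3.58.1, DESeq2 1.42.0), with filterByExpr (minimum count 10), TMM, the two-sided quasi-likelihood test and Benjamini-Hochberg adjustment over 16742 genes. Alternatives were DESeq2, limma-voom, other normalizations and filters, each sex alone, each library left out, the replicate number as a block, and removal of the trend with length. The procedure was also run on simulated counts with 200 changed genes. These held no length trend, so that run does not bear on the calls described here. The members, the wider list and the 9 marker lists were chosen with earlier results of these data known. Genes named were the members, Gcgr, genes of the wider list past the threshold, otherwise the gene with the smallest p of its role, leading markers, and the 5 genes most alike Eif4ebp1. Also named were genes of the wider list that held the motif, a marker at 0 in some libraries and the marker not found by its listed symbol. Pdcd4, Ddit4, Atf4, Eif4ebp2 and Asns were named after their values were seen. Intervals cover replicate error as modelled, and reads without molecular identifiers are not independent molecules. Protein sequences were not used here.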

Additional observations from a re-analysis of the deposited data

Results flagged for a closer look

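Levels of 14 genes in their groups of 4 livers were examined for a sample far from the others, which gave 3 of 56 groups, and chance gives about 1 in 20. Eif2ak4 read 6.92 CPM in female CRE- replicate 4, and its gap to the nearest liver was 0.871 of the group's range. Eif4ebp3 read 41.7 CPM in male LKO replicate 1, with a gap of 0.845 of the range. Gcgr read 127 CPM in male CRE- replicate 3, with a gap of 0.949 of the range.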

How the results depend on the processing

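The counts of members past the threshold were 0 under every alternative in females, in the sex difference and between the controls, and so were those of the wider list in the last pair of comparisons. In males the member count of 0 became 1 with DESeq2, limma-voom, the length trend removed, and male CRE- replicate 3 and female LKO replicate 1 left out together, and ran from 0 to 1 with libraries left out in turn. For the mean over both sexes it became 1 with the same alternatives, with the replicate block and at an adjusted p under 0.1, and ran from 0 to 1. The wider count in males, 1, became 3 with DESeq2 and limma-voom, 0 with upper-quartile normalization, 2 with each sex alone and 2 with the length trend removed, and ran from 0 to 2. Without both libraries it was 1, Eif4ebp1 in place of Trib3. In females, where it was 2, it became 4 with DESeq2, 3 with limma-voom, 0 with each sex alone and 0 without both libraries. It was 4 at an adjusted p under 0.1, and ran from 0 to 3. With limma-voom, the block and the length trend removed, Pdcd4 passed in females beside Trib3 and Sesn2. For the mean, where the wider count was 3, it became 6 with DESeq2, 5 with limma-voom and 5 with the replicate block. It was 6 with the length trend removed, 5 without both libraries and 6 at an adjusted p under 0.1. With libraries left out it ran from 2 to 6. The 5 of limma-voom leave out Eif4ebp3. The cause was not tested. Labels give no shared source for replicate numbers. Of 8 pairs of the same number 6 correlated over 0.1 and 2 did not (-0.013 and 0.028), and not every sample was most alike its own number, so numbers were not used as pairs. The block moved the calls over all genes from 76 to 67 in males, 710 to 1012 in females and 478 to 553 in the mean, where it brought Eif4ebp1 to 0.736 (adjusted p = 0.0325) and Pdcd4 to -0.753 (0.0118, in females -0.911 and 0.0209).

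Small differences changed sign. Deptor in males was 0.18 in limma-voom, 0.016 with upper quartile, 0.068 with the block, 0.20 with the length trend removed and 0.26 without both libraries, and ran from -0.19 to 0.25 with libraries left out. Castor1 in males was -0.027 without both libraries and ran from -0.03 to 0.51, and Rps6kb1 ran from -0.005 to 0.23. In females Tsc2 was -0.061 in limma-voom and -0.034 without both libraries (from -0.035 to 0.27 with libraries left out), and Rps6kb1 was -0.048 in limma-voom (from -0.002 to 0.21). Eif2ak4 in females was 0.003 with DESeq2 and with RLE, 0.024 with upper quartile, 0.021 with at least 10 counts in every library, 0.009 with the block and 0.004 with each sex alone (from -0.154 to 0.072). Rptor in females ran from -0.22 to 0.04 and Deptor from -0.19 to 0.20. Ddit4 in females ran from -0.304 to 0.735. The cause was not tested. Removal of the length trend, leaving out both libraries together, and the block for the mean, the sex difference and the controls were chosen after seeing the data. With 4 mice a group, intervals of member log2 fold changes allow differences of either sign for most members.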
